A study of Mus musculus with 20 samples.

Results

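DNA replication licensing and fork genes were followed in cultured mouse kidney epithelial cells, which had been immortalised and derive from the strain C57BL/6J. The set holds 48 genes of 39179 in the count tables: the subunits of the origin recognition complex, the loaders of the replicative helicase and their inhibitor, the helicase and its activators, the sliding clamp and its loader, the replicative polymerases and primase, the enzymes that join Okazaki fragments, the single-strand binding protein, and the cyclins and E2F factors of S phase. The rule lists them by name and uses no measured value, but the set was proposed with earlier results of these data known. All 48 passed the filter on low counts, as did 12671 genes in all. RNA was sequenced from 4 groups of 5 libraries. The clones clone1 and clone19 carry the genotype label Fh1 deletion, the cells named Rec the label Fh1 wt re-expressed, and those named Fh1_fl_fl the label Fh1 wt. Fh1 encodes fumarate hydratase, which turns fumarate into malate in the TCA cycle. All groups were cultured alike, in DMEM that contained 10% FBS and 0.05 mg/mL uridine. By their names, clone1 and clone19 are each a single clone, so clone and genotype cannot be told apart within either of them. Rec and Fh1_fl_fl likewise each stand under a single name. Re-expression in Rec therefore cannot be told apart from other differences between these cells. The labels do not say which part of Fh1 was removed, from which clone Rec was made, or whether each library of a group is its own culture. The p-values therefore measure only the spread between these libraries, which may be technical.

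Replication is prepared in G1, when the origin recognition complex and Cdc6, with Cdt1, load the Mcm2 to Mcm7 hexamer onto DNA, a step called licensing. Geminin blocks Cdt1 once S phase has begun, so that origins are not licensed again. Cdc7 with Dbf4 and the cyclin-dependent kinases then help to recruit Cdc45 and the GINS complex, which turn the hexamer into the active helicase of the fork, behind which the clamp, its loader and the polymerases copy both strands. Many of these genes are transcribed from late G1 under E2F factors, so their transcripts are higher in proliferating than in resting cells. In RNA from bulk cultures, fewer cells in S phase and less RNA per cell cannot be told apart.

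E2F factors bind short GC-rich letters near gene starts, and the promoter sequences below show some of the members that carry them. RefSeq promoter windows (GRCm38.p6) of 300 bases, from 250 bases before to 50 bases after an annotated start, were searched on both strands for TTTGGCGC, TTTCGCGC, TTTCCCGC and TTTGCCGC. A window was found for 38 of 48 members, and 16 of them (42.1%) held these letters in at least 1 window, against 704 of 27025 genes with a window (2.6%). Gmnn, Mcm4, Gins1, Gins2, Gins4, Rfc2, Prim2, Pole, Ccne2 and Ccna2 had no entry. The letters CCAAT, searched in the same way, stood in 52.1% of the members' windows and in 37.4% of all 32851 windows. A match is a description of the sequence, and neither a binding site nor a cause of any level given here. The stretches of 60 bases below come from the 9 members with at least 1 match wholly before the RefSeq start. Each runs 5′ to 3′ on the gene's own strand. GENCODE, the source of the gene coordinates given below, places some starts elsewhere. By its coordinates the stretches of Cdc6, Mcm7 and Gins3 lie inside the gene, and those of Orc1 and Rfc3 cross its first base. Capitals mark the searched letters, on either strand, and in Mcm5 a match on each strand overlaps. Mcm7 and Rfc3 hold a further match at or after the start, which is not printed. The Mcm6 window holds 3 matches, all before the start. Only the match nearest the start lies in its printed stretch, and the others lie further upstream.
Orc1: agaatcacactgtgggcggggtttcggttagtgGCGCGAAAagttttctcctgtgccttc
Orc3: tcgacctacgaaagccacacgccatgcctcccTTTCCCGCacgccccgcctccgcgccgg
Cdc6: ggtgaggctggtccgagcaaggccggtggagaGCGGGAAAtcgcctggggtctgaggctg
Mcm5: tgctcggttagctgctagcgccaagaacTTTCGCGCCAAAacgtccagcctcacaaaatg
Mcm6: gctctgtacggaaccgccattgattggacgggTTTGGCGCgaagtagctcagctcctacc
Mcm7: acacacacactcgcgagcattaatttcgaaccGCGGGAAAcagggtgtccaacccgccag
Gins3: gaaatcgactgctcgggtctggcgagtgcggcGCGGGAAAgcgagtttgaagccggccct
Rfc3: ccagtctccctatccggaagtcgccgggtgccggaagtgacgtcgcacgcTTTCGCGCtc
Pola1: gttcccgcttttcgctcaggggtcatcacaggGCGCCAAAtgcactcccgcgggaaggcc
The stretches lie at Orc1 chr4:108579394-108579453 (plus strand), Orc3 chr4:34614956-34615015 (minus strand), Cdc6 chr11:98907981-98908040 (plus strand), Mcm5 chr8:75109328-75109387 (plus strand), Mcm6 chr1:128359725-128359784 (minus strand). The others lie at Mcm7 chr5:138172021-138172080 (minus strand), Gins3 chr8:95633486-95633545 (plus strand), Rfc3 chr5:151651209-151651268 (minus strand), Pola1 chrX:93632266-93632325 (minus strand). Of the 16 members with the letters, 15 were higher in Rec than in Fh1_fl_fl, and of the 22 members with a window but without them, 19 were. The difference between these shares was not tested. The member with the letters that did not pass the test in Rec was Orc3, whose stretch is printed above.

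The gene counts of the libraries summed to 5988447 to 18972176, with a median of 10485784. Levels are given as counts per 1000000 (CPM) on library sizes scaled by the trimmed mean of M-values (TMM). In 20 of 20 libraries, the closest library was 1 of the same group. Clone19 replicate 3 stood apart, with 8.2% of its counts at the locus Gm42418, against a median of 0.314% over all libraries. Without that library, 16 members were higher and 13 lower in clone19 than in Fh1_fl_fl, against 17 and 14 with it. Fh1 itself averaged 112 ± 5.93 CPM in clone1, 84.7 ± 7.31 in clone19, 71.3 ± 7.08 in Rec and 92.3 ± 6.16 in Fh1_fl_fl (SD, n = 5 each), so its counts were highest in clone1, labelled as deleted, and lowest in Rec, labelled as re-expressed. The labels do not say which part of Fh1 was removed and counts by exon were not analysed here, so these levels do not check the labels, and each direction given here rests on the groups as labelled. All 13 epithelial markers, among them Cdh1, Epcam and the keratins Krt8 and Krt18, were counted in every library. Their summed level was 2513 to 3217 CPM in clone1, 2816 to 3106 in clone19, 5703 to 6527 in Rec and 4317 to 5088 in Fh1_fl_fl. By the test given below, 2 of the 13 were higher and 11 lower in clone1 than in Fh1_fl_fl, and 1 and 11 in clone19. In Rec, 4 were higher and 4 lower, so the sum hides both directions. Krt7 averaged 1569 CPM in Rec against 761 in Fh1_fl_fl, and Cldn4 252 against 713. Of all tested genes, 38% were higher and 40.5% lower in clone1, 36.8% and 36.1% in clone19, and 33.4% and 37.4% in Rec. The 8 fibroblast markers summed to at most 15.4 CPM, with Pdgfrb, Lum and Thy1 at 0 in every library, and the 8 endothelial markers to at most 15.6 CPM. The 8 leukocyte markers summed to 21.4 to 31.3 CPM in clone1, clone19 and Rec and to 45.9 to 52.4 CPM in Fh1_fl_fl, with the pan-leukocyte gene Ptprc at most 1.16 CPM in any library. Csf1r and Cd68 made up most of these sums. Csf1r averaged 13.3 CPM in clone1, 7.54 in clone19, 20.95 in Rec and 43.5 in Fh1_fl_fl, and Cd68 7.6, 18.1, 2.62 and 3.97 CPM in the same groups.

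Rec cells held more transcript of nearly all of these genes than any other group, whereas each clone differed from Fh1_fl_fl in both directions. Summed over the 48 members, the level was 3375 ± 102 CPM in clone1, 3625 ± 73.3 in clone19, 6190 ± 89.5 in Rec and 3448 ± 116 in Fh1_fl_fl (SD, n = 5 each). In Rec against Fh1_fl_fl, 43 members were higher and 1 lower at an adjusted p under 0.05 in edgeR's quasi-likelihood test, while 33.4% of the 12671 tested genes were higher and 37.4% lower. The median log2 fold change was 0.83 over the members and -0.03 over all tested genes. Of the members, 21 were called higher with a fold change over 2 (a log2 fold change over 1) and 1 lower, against 6.58% and 11.3% of all tested genes. For 42 members every Rec library lay above every Fh1_fl_fl library, against 27.4% of all tested genes. The member that fell was Ccne1, and Orc3, Orc4, Cdc7 and Rfc2 did not pass the test.

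In clone1 against Fh1_fl_fl, 19 members were higher and 23 lower, while 38% of all tested genes were higher and 40.5% lower. The median log2 fold change was -0.17 over the members and -0.03 over all tested genes. All clone1 libraries lay above all Fh1_fl_fl libraries for 15 members and below them for 19, against 31.3% and 34.3% of all tested genes. The split was 11 higher and 26 lower when libraries were scaled to their totals in place of TMM. In clone19 against Fh1_fl_fl, 17 members were higher and 14 lower, while 36.8% of all tested genes were higher and 36.1% lower. The median was 0.05 over the members and 0.004 over all tested genes, and scaling to library totals gave 11 members higher and 18 lower. All clone19 libraries lay above all Fh1_fl_fl libraries for 8 members and below them for 10, against 29.3% and 29.7% of all tested genes. Library totals moved the median over all tested genes to -0.17 in clone1, -0.12 in clone19 and -0.17 in Rec, each against Fh1_fl_fl. The share of members called was thus 87.5% in clone1 and 64.6% in clone19, beside the 78.6% and 72.9% of all tested genes called in either direction.

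The 5 Fh1_fl_fl libraries serve as the reference for clone1, clone19 and Rec alike, which makes their calls against Fh1_fl_fl dependent on 1 set of values. Side by side, 11 members were higher in clone1, clone19 and Rec, and 0 were lower in all of them, against 13.7% and 16.1% of all tested genes. A further 12 members were lower in both clones, as were 27.4% of all tested genes. Of these, 11 were also higher in Rec than in Fh1_fl_fl, a pattern held by 4.93% of all tested genes, and 1, Rfc2, did not pass that test. All 12 were higher in Rec than in each clone, and 15.4% of all tested genes were likewise lower in both clones than in Fh1_fl_fl and in Rec. Both clones were higher than Fh1_fl_fl for 12 members, against 26.3% of all tested genes. These joint counts depend on the processing. With scaling to library totals, Gmnn, Orc3, Orc5, Mcm6 and Pold1 lost their call in at least 1 clone. Under the same scaling, Rfc4 and Pola1 lost theirs in Rec, while Prim2 and Pole2 became lower in both clones. Pcna lost its clone1 call with RLE scaling and with DESeq2. In opposite directions in the clones went 5 members, Mcm3, Cdc7, Rfc1, Rfc3 and Pola2, against 7.36% of all tested genes. The Rec mean was the highest of the 4 group means for 41 of 48 members and the clone1 mean the lowest for 26, against 25.9% and 30.2% of all tested genes. Rec was called higher than each of the other groups for 38 members, as it was for 16.2% of all tested genes. All Rec libraries lay above all 15 other libraries for 34 members, against 11.8% of all tested genes, and below all of them for 1 member, Ccne1, against 10.3%.

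**Figure D1:**
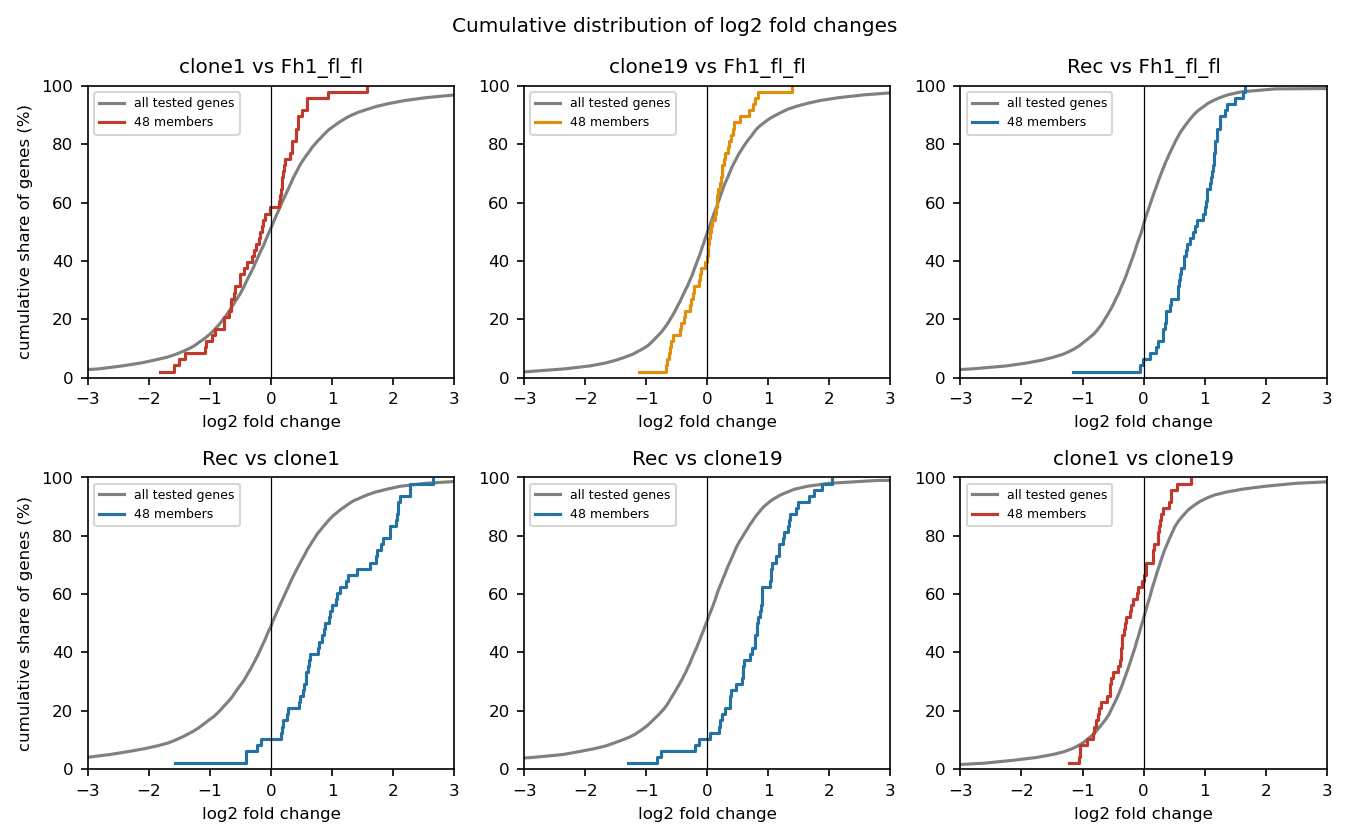
Cumulative share of genes (vertical axis, %) by log2 fold change (horizontal axis) in the 6 comparisons, for the 48 members (coloured steps) and all tested genes (grey line). In the 3 comparisons with Rec on top, the members lie right of the grey line, with medians of 0.83 against Fh1_fl_fl, 0.92 against clone1 and 0.82 against clone19.

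**Figure D2:**
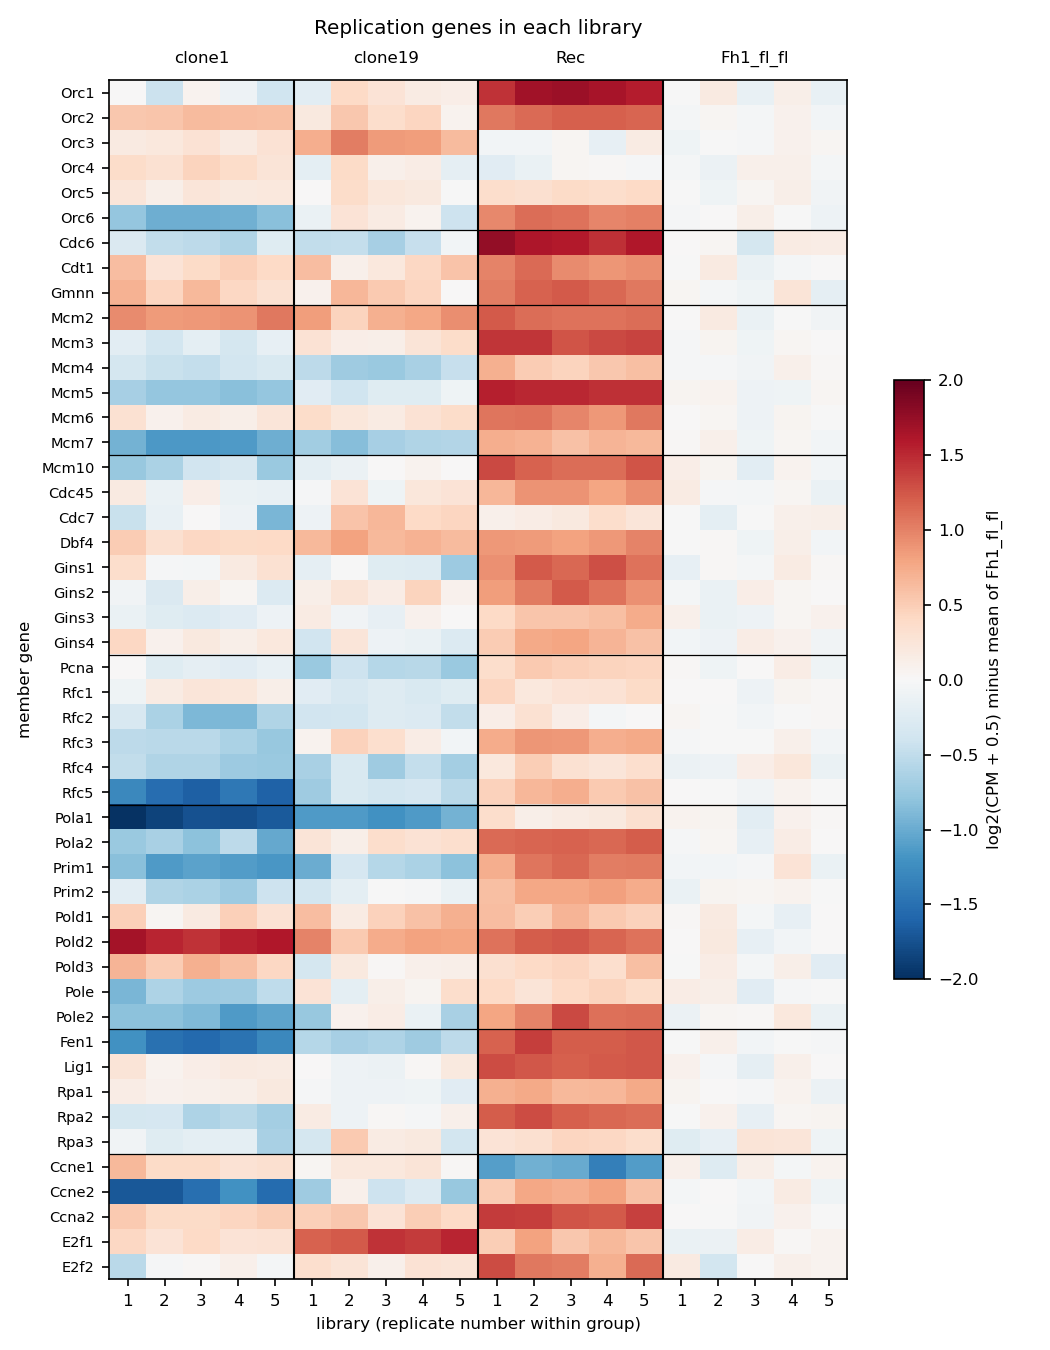
Each row is a member, ordered by role with lines between roles, and each column a library, in 4 groups of 5; colour is log2(CPM + 0.5) minus the Fh1_fl_fl mean of the gene, limited to -2 and 2. The Rec columns are red for nearly all members, with Ccne1 blue, while the clone1 and clone19 columns hold both colours.

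The calls by role given from here on stand beside the shares of all tested genes higher and lower than in Fh1_fl_fl. These were 38% and 40.5% in clone1, 36.8% and 36.1% in clone19, and 33.4% and 37.4% in Rec. Whether a role differs from these shares was not tested. The origin recognition complex marks the sites where the helicase is loaded. Of 6 subunit genes, the test called 4 higher and 1 lower in clone1, 3 higher and 0 lower in clone19 and 4 higher and 0 lower in Rec, each against Fh1_fl_fl, with median log2 fold changes of 0.22 in clone1, 0.17 in clone19 and 0.70 in Rec. Orc1, the subunit whose level changes with the cell cycle (ENSMUSG00000028587, chr4:108579423-108614833, plus strand in GRCm38), was the lowest of the 6 per kilobase of exon in clone1, clone19 and Fh1_fl_fl but not in Rec, with 2.28 CPM per kilobase in clone1, 2.88 in clone19, 8.1 in Rec and 2.56 in Fh1_fl_fl. Orc1 had 8.96, 6.48, 9.34, 8.24 and 6.59 CPM in clone1 replicates 1 to 5 and 7.62, 11.8, 10.8, 10.0 and 9.71 CPM in those of clone19. Rec had 25.1, 29.5, 30.1, 28.8 and 27.4 CPM of Orc1, against 8.86, 10.1, 7.94, 9.66 and 7.99 CPM in Fh1_fl_fl. For Orc1, every Rec library lay above every Fh1_fl_fl library, while the values of clone1 and clone19 overlapped with those of Fh1_fl_fl. For Orc1, the log2 fold change against Fh1_fl_fl was -0.17 (SE 0.12, adjusted p = 0.191) in clone1, 0.18 (SE 0.12, adjusted p = 0.175) in clone19 and 1.67 (SE 0.10, adjusted p = 1.25e-13) in Rec. The Orc1 difference in clone1 passed the threshold with scaling to library totals (log2 fold change -0.32; adjusted p = 0.0198 to 0.611 over all alternatives). Its promoter stretch, printed above, holds the letters close to the start. Orc3, another core subunit (ENSMUSG00000040044, chr4:34570796-34614944, minus strand), had another order of groups. In clone1, Orc3 was counted at 50.0, 50.7, 53.8, 50.0 and 53.7 CPM, and in clone19 at 72.8, 90.1, 80.1, 78.6 and 68.6 CPM. In Rec, Orc3 had 42.4, 42.1, 45.2, 39.2 and 49.5 CPM, against 41.4, 43.7, 43.2, 46.5 and 45.1 CPM in Fh1_fl_fl. For Orc3, all libraries of clone1 and clone19 lay above all of Fh1_fl_fl, while the values of Rec overlapped with those of Fh1_fl_fl. Orc3 had log2 fold changes against Fh1_fl_fl of 0.23 (SE 0.07, adjusted p = 0.00425) in clone1, 0.83 (SE 0.07, adjusted p = 5.21e-11) in clone19 and -0.004 (SE 0.07, adjusted p = 0.969) in Rec. In Rec the 95% interval of the Orc3 fold change ran from -0.14 to 0.14 on the log2 scale. The clone1 call missed the threshold with scaling to library totals (log2 fold change 0.09; adjusted p = 0.00046 to 0.245 over all alternatives). Orc6 fell by 0.91 on the log2 scale in clone1 and rose by 1.03 in Rec, with means of 36.7 ± 2.53 CPM in clone1, 69.7 ± 12.6 in clone19, 142 ± 6.82 in Rec and 69.3 ± 3.85 in Fh1_fl_fl (SD, n = 5 each). Orc2 rose in all 3 groups, to 126 ± 3.88 CPM in clone1, 105 ± 13.4 in clone19 and 187 ± 7.27 in Rec, against 83.8 ± 3.72 in Fh1_fl_fl, although 29.8% of its exon bases overlap Nif3l1 on the other strand. The strand setting of the counting is not given in the sources used here, so reads of such overlapping genes cannot be told apart. Orc4 averaged 173 ± 8.77 CPM in clone1, 142 ± 24.6 in clone19, 130 ± 10.2 in Rec and 136 ± 9.02 in Fh1_fl_fl, and Orc5 73 ± 2.45, 71.1 ± 7.99, 81.7 ± 1.61 and 63.5 ± 3.78 CPM in the same groups. The Orc5 call in clone19 missed the threshold with scaling to library totals, no count filter and a fit of only the 2 groups compared and without clone19 replicates 2 or 4, Fh1_fl_fl replicates 2 or 5 (log2 fold changes 0.04 to 0.17; adjusted p = 0.00702 to 0.642 over all alternatives). Its call in clone1 missed the threshold with scaling to library totals (log2 fold change 0.06; adjusted p = 0.000386 to 0.418 over all alternatives), and the Orc4 value in Rec passed the threshold with scaling to library totals (log2 fold change -0.20; adjusted p = 0.0399 to 0.83 over all alternatives).

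Cdc6 and Cdt1 bring the helicase to the complex, and geminin (Gmnn) binds Cdt1 and stops it. Of 3 genes of this group, the test called 2 higher and 1 lower in clone1, 2 higher and 1 lower in clone19 and 3 higher and 0 lower in Rec, each against Fh1_fl_fl, with median log2 fold changes of 0.44 in clone1, 0.36 in clone19 and 1.13 in Rec. Cdc6 (ENSMUSG00000017499, chr11:98907801-98923940, plus strand), an ATPase made in late G1, was low in both clones and high in Rec. Cdc6 reached 13.7, 11.8, 11.5, 11 and 14.2 CPM in the clone1 libraries and 11.9, 12, 10.5, 12.1 and 16.3 CPM in the clone19 libraries. Cdc6 stood at 58.5, 53, 51.6, 47.5 and 52.1 CPM in Rec, against 17, 17.3, 13.2, 18.9 and 18.7 CPM in Fh1_fl_fl. For Cdc6, every Rec library lay above every Fh1_fl_fl library, while the values of clone1 and clone19 overlapped with those of Fh1_fl_fl. Against Fh1_fl_fl, Cdc6 gave a log2 fold change of -0.44 (SE 0.11, adjusted p = 0.000703) in clone1, -0.42 (SE 0.11, adjusted p = 0.00148) in clone19 and 1.62 (SE 0.10, adjusted p = 4.17e-14) in Rec. Per kilobase of exon, the Cdc6 level was 10.1 CPM in Rec, against 3.26 CPM in Fh1_fl_fl. Cdt1 (ENSMUSG00000006585, chr8:122568015-122573554, plus strand) rose in all 3 groups. Cdt1 had 80.4, 62.9, 68, 72.9 and 68.5 CPM in clone1 replicates 1 to 5 and 79.7, 55.6, 60.1, 69.2 and 77.6 CPM in those of clone19. Rec had 104, 114, 100.3, 96.1 and 99.5 CPM of Cdt1, against 51.5, 58.7, 47.6, 50.5 and 52.4 CPM in Fh1_fl_fl. For Cdt1, all libraries of clone1 and Rec lay above all of Fh1_fl_fl, while the values of clone19 overlapped with those of Fh1_fl_fl. For Cdt1, the log2 fold change against Fh1_fl_fl was 0.44 (SE 0.09, adjusted p = 5.11e-05) in clone1, 0.40 (SE 0.09, adjusted p = 0.000228) in clone19 and 0.98 (SE 0.09, adjusted p = 7.69e-11) in Rec. Gmnn (ENSMUSG00000006715, chr13:24751845-24761923, minus strand), the inhibitor, moved in the same directions as Cdt1. In clone1, Gmnn was counted at 44, 36.7, 42.5, 36.3 and 33.5 CPM, and in clone19 at 28.5, 43, 39.2, 36.4 and 27 CPM. In Rec, Gmnn had 55.4, 61.9, 63.9, 60.1 and 56.4 CPM, against 27.7, 26.2, 25.4, 32.5 and 23.8 CPM in Fh1_fl_fl. For Gmnn, all libraries of clone1 and Rec lay above all of Fh1_fl_fl, while the values of clone19 overlapped with those of Fh1_fl_fl. Gmnn had log2 fold changes against Fh1_fl_fl of 0.51 (SE 0.11, adjusted p = 0.000115) in clone1, 0.36 (SE 0.11, adjusted p = 0.00485) in clone19 and 1.13 (SE 0.10, adjusted p = 2.4e-10) in Rec. The clone19 call of Gmnn missed the threshold with scaling to library totals (log2 fold change 0.23; adjusted p = 0.000553 to 0.0521 over all alternatives). The ratio of the Cdt1 to the Gmnn level, both per kilobase of exon, was 0.858 ± 0.0881 in clone1, 0.971 ± 0.338 in clone19, 0.808 ± 0.066 in Rec and 0.908 ± 0.132 in Fh1_fl_fl (SD, n = 5 each), and the groups overlapped.

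**Figure D3:**
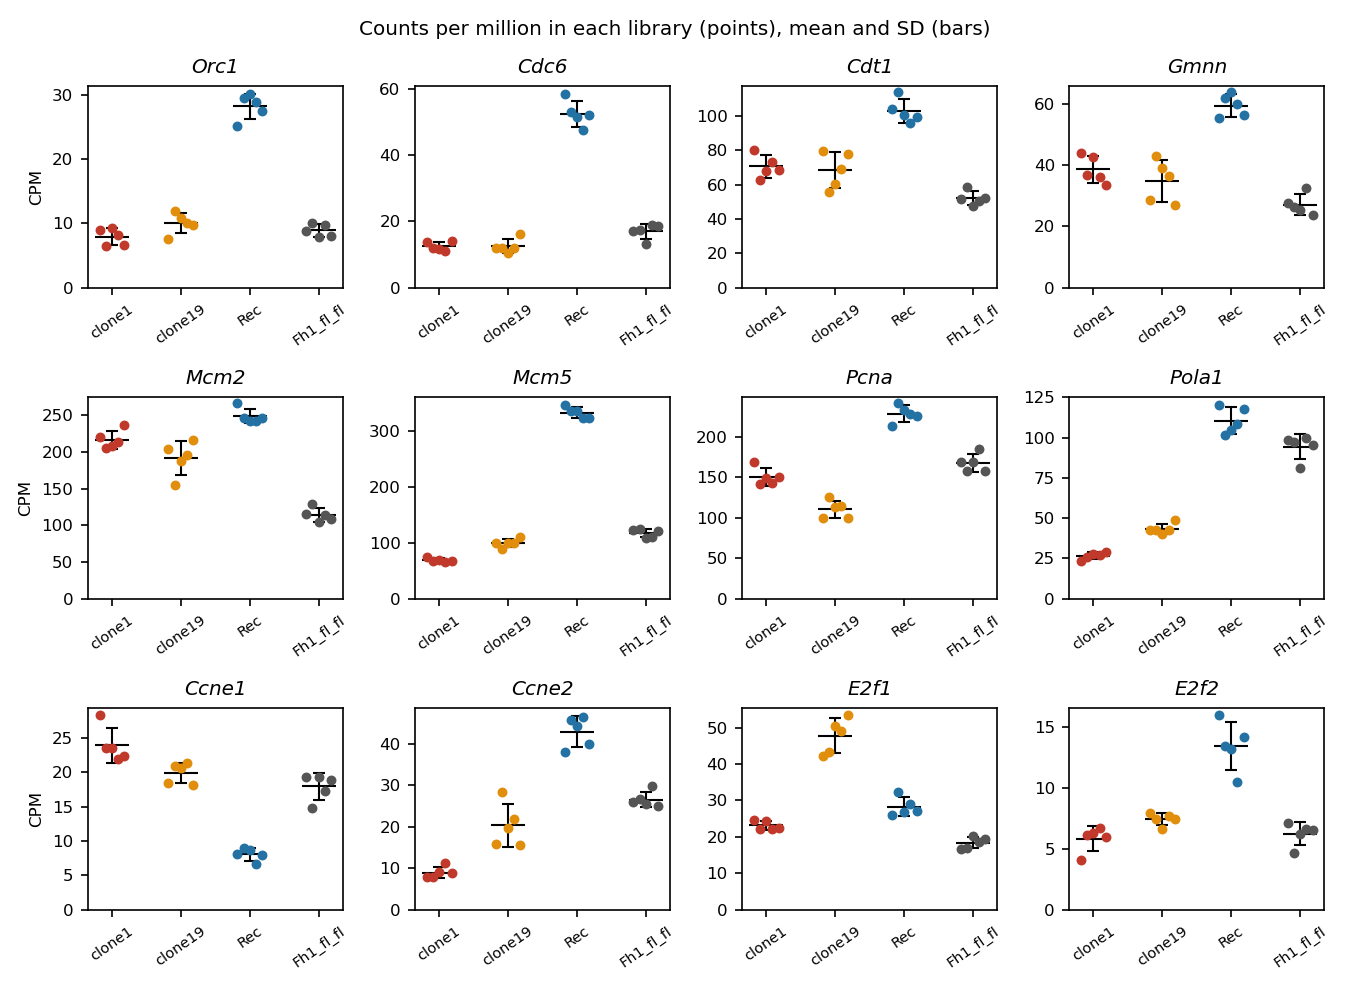
CPM (vertical axis, from 0) in each library (points) with the mean and SD (bars) for 12 members, in clone1, clone19, Rec and Fh1_fl_fl from left to right. Rec is highest for Orc1, Cdc6, Mcm5 and E2f2 and lowest for Ccne1, Pola1 is low in both clones, and E2f1 is highest in clone19.

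The Mcm2 to Mcm7 subunits form 1 ring with each subunit once, yet in each clone their transcripts were called in both directions. All tested genes were also split, with 38% higher and 40.5% lower in clone1 and 36.8% and 36.1% in clone19. Of 6 helicase subunit genes, the test called 2 higher and 4 lower in clone1, 3 higher and 3 lower in clone19 and 6 higher and 0 lower in Rec, each against Fh1_fl_fl, with median log2 fold changes of -0.32 in clone1, 0.001 in clone19 and 1.07 in Rec. Mcm2 (ENSMUSG00000002870, chr6:88883474-88898780, minus strand) rose in all 3 groups. Mcm2 reached 219.6, 206, 208, 213 and 236 CPM in the clone1 libraries and 204, 155, 187, 196 and 216 CPM in the clone19 libraries. Mcm2 stood at 267, 246, 243, 242 and 246 CPM in Rec, against 115, 129, 104, 113 and 109 CPM in Fh1_fl_fl. For Mcm2, all libraries of clone1, clone19 and Rec lay above all of Fh1_fl_fl. Against Fh1_fl_fl, Mcm2 gave a log2 fold change of 0.93 (SE 0.07, adjusted p = 4.36e-12) in clone1, 0.75 (SE 0.07, adjusted p = 5.12e-10) in clone19 and 1.13 (SE 0.07, adjusted p = 1.48e-13) in Rec. Mcm5 (ENSMUSG00000005410, chr8:75109569-75128439, plus strand), whose printed stretch holds the letters on both strands, fell in both clones and rose in Rec. Mcm5 had 73.6, 68, 68.5, 65.4 and 68.1 CPM in clone1 replicates 1 to 5 and 100.3, 88.8, 98.8, 99 and 111 CPM in those of clone19. Rec had 346, 335, 336, 323 and 324 CPM of Mcm5, against 122, 124, 109, 110.5 and 121 CPM in Fh1_fl_fl. For Mcm5, every Rec library lay above every Fh1_fl_fl library, every clone1 library lay below every Fh1_fl_fl library, and the values of clone19 overlapped with those of Fh1_fl_fl. For Mcm5, the log2 fold change against Fh1_fl_fl was -0.77 (SE 0.06, adjusted p = 3.38e-12) in clone1, -0.24 (SE 0.06, adjusted p = 0.000732) in clone19 and 1.50 (SE 0.06, adjusted p = 3.79e-18) in Rec. Mcm3 (ENSMUSG00000041859, chr1:20802968-20820312, minus strand) fell in clone1 and rose in clone19 and Rec. In clone1, Mcm3 was counted at 101, 91, 103, 91.2 and 105 CPM, and in clone19 at 144, 129, 127, 140 and 151 CPM. In Rec, Mcm3 had 317, 317, 282, 292 and 299.9 CPM, against 115, 122, 111, 121 and 117 CPM in Fh1_fl_fl. For Mcm3, all libraries of clone19 and Rec lay above all of Fh1_fl_fl, while every clone1 library lay below every Fh1_fl_fl library. Mcm3 had log2 fold changes against Fh1_fl_fl of -0.26 (SE 0.06, adjusted p = 0.000374) in clone1, 0.24 (SE 0.06, adjusted p = 0.000804) in clone19 and 1.36 (SE 0.06, adjusted p = 4.79e-17) in Rec. The clone19 call of Mcm3 missed the threshold with scaling to library totals (log2 fold change 0.12; adjusted p = 7.33e-05 to 0.128 over all alternatives), and the direct difference between clone1 and clone19 was -0.49 (SE 0.06, adjusted p = 6.42e-08). Mcm7 fell by 1.07 in clone1 and 0.68 in clone19 and rose by 0.66 in Rec on the log2 scale, and Mcm4 fell by 0.39 and 0.62 in the same clones and rose by 0.56 in Rec. Mcm6 rose by 0.18 in clone1, 0.29 in clone19 and 1.02 in Rec, and the clone1 call missed the threshold with scaling to library totals (log2 fold change 0.04; adjusted p = 0.00036 to 0.565 over all alternatives).

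The makeup of the helicase transcripts differed between the groups when each subunit was taken as a share of the summed level of all 6 per kilobase of exon. Mcm2 made up 20.8 ± 0.586% in clone1, 16 ± 0.918% in clone19, 9.47 ± 0.178% in Rec and 8.89 ± 0.396% in Fh1_fl_fl (SD, n = 5 each). For Mcm7 the share was 17.9 ± 0.425% in clone1, 20.4 ± 0.893% in clone19, 23.6 ± 0.479% in Rec and 30.6 ± 0.547% in Fh1_fl_fl. Mcm5 had 11.5 ± 0.471% in clone1, 14.5 ± 0.397% in clone19, 22.1 ± 0.595% in Rec and 16 ± 0.737% in Fh1_fl_fl. Mcm3 held 17.5 ± 0.736% in clone1, 21.4 ± 0.566% in clone19, 21.3 ± 0.455% in Rec and 17 ± 0.292% in Fh1_fl_fl. Mcm2 thus had the largest mean share in clone1, where its libraries overlapped with those of Mcm6, and the smallest in Rec, where they overlapped with those of Mcm4, and in Fh1_fl_fl. Mcm3 had the largest mean share in clone19, where its libraries overlapped with those of Mcm7, and Mcm7 led in Rec and Fh1_fl_fl. Mcm6 held 19.5 ± 0.424% in clone1, 18.3 ± 0.787% in clone19, 13.8 ± 0.58% in Rec and 14 ± 0.215% in Fh1_fl_fl, and Mcm4 12.8 ± 0.444% in clone1, 9.44 ± 0.359% in clone19, 9.75 ± 0.452% in Rec and 13.6 ± 0.592% in Fh1_fl_fl. The ratio of Mcm5 to Mcm2, both per kilobase of exon, was 0.554 ± 0.0347 in clone1, 0.91 ± 0.0547 in clone19, 2.33 ± 0.0591 in Rec and 1.8 ± 0.111 in Fh1_fl_fl, and the 4 groups did not overlap. Protein levels of the subunits were not measured.

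**Figure D4:**
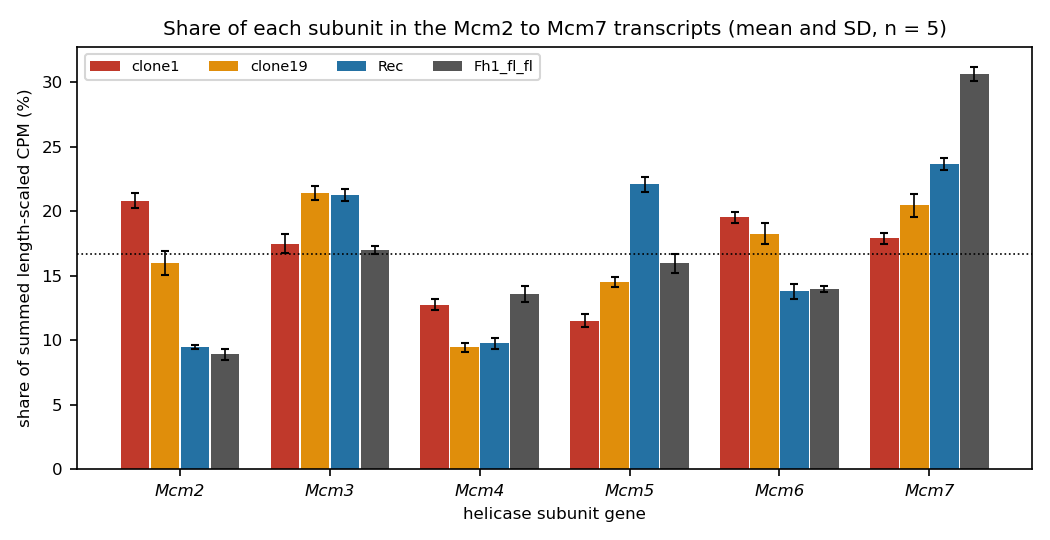
Share (vertical axis, %, from 0) of each helicase subunit gene (horizontal axis) in the summed CPM per kilobase of Mcm2 to Mcm7, as mean and SD over 5 libraries for clone1, clone19, Rec and Fh1_fl_fl; the dotted line marks equal shares. Mcm2 has 20.8% in clone1 and 8.89% in Fh1_fl_fl, and Mcm7 17.9% in clone1 and 30.6% in Fh1_fl_fl.

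Cdc7 with its activator Dbf4 phosphorylates the loaded ring, and Mcm10, Cdc45 and the 4 GINS subunits complete the active helicase. Of 8 activation genes, the test called 2 higher and 3 lower in clone1, 3 higher and 1 lower in clone19 and 7 higher and 0 lower in Rec, each against Fh1_fl_fl, with median log2 fold changes of -0.06 in clone1, 0.08 in clone19 and 0.86 in Rec. Cdc7 (ENSMUSG00000029283, chr5:106964322-106984432, plus strand), the kinase, was the activation gene that differed in opposite directions in the clones. Cdc7 reached 28.3, 34.7, 38.6, 35.7 and 20.2 CPM in the clone1 libraries and 35.8, 57.5, 61.2, 51.2 and 51.9 CPM in the clone19 libraries. Cdc7 stood at 41.5, 42.9, 44.2, 49.1 and 45.8 CPM in Rec, against 38.1, 33.6, 38.3, 41.2 and 42 CPM in Fh1_fl_fl. For Cdc7, the values of clone1, clone19 and Rec overlapped with those of Fh1_fl_fl. Against Fh1_fl_fl, Cdc7 gave a log2 fold change of -0.31 (SE 0.13, adjusted p = 0.0305) in clone1, 0.41 (SE 0.12, adjusted p = 0.00443) in clone19 and 0.21 (SE 0.12, adjusted p = 0.137) in Rec. The clone1 call of Cdc7 missed the threshold with RLE scaling, the stricter count filter and DESeq2 and without clone1 replicates 1 or 5, Rec replicates 2, 4 or 5, Fh1_fl_fl replicates 1, 3, 4 or 5 (log2 fold changes -0.28 to -0.14; adjusted p = 0.00202 to 0.233 over all alternatives). In Rec the 95% interval ran from -0.04 to 0.45, and the value passed the threshold with a fit of only the 2 groups compared and without clone1 replicate 5 (log2 fold change 0.22; adjusted p = 0.00619 to 0.595 over all alternatives). The difference between clone1 and clone19 was -0.72 (SE 0.13, adjusted p = 2.45e-05). Dbf4 rose in all 3 groups, with 349 ± 16.5 CPM in clone1, 425 ± 20.6 in clone19, 486 ± 23.1 in Rec and 264 ± 13.8 in Fh1_fl_fl (SD, n = 5 each). Mcm10, which acts when the helicase starts, fell by 0.59 in clone1 and rose by 1.21 in Rec on the log2 scale, with 22.9 ± 3.37 CPM in clone1, 33 ± 2.47 in clone19, 78.8 ± 4.9 in Rec and 34.1 ± 3.11 in Fh1_fl_fl. Cdc45 averaged 16.3 ± 1.9 CPM in clone1, 18.2 ± 2.13 in clone19, 29.8 ± 2.17 in Rec and 16.5 ± 1.31 in Fh1_fl_fl, and passed the test in Rec with a log2 fold change of 0.85. The 4 GINS genes all rose in Rec, with log2 fold changes of 1.16 for Gins1, 1.04 for Gins2, 0.58 for Gins3 and 0.67 for Gins4. In the clones their log2 fold changes lay between -0.29 and 0.23. Of Gins2, 67.3% of the exon bases overlap Gse1 on the other strand. In clone19, the call of Gins1 missed the threshold without clone19 replicates 3, 4 or 5, Fh1_fl_fl replicates 2, 3, 4 or 5 (log2 fold changes -0.29 to -0.17; adjusted p = 0.00252 to 0.172 over all alternatives), and that of Gins2 missed the threshold with scaling to library totals and no count filter and without clone19 replicates 2 or 4, Fh1_fl_fl replicates 1 or 2 (log2 fold changes 0.10 to 0.22; adjusted p = 0.0153 to 0.354 over all alternatives). In clone1, the call of Gins3 missed the threshold with RLE scaling, the stricter count filter and DESeq2 and without clone1 replicates 1 or 3, clone19 replicates 1 or 3, Rec replicates 2, 4 or 5, Fh1_fl_fl replicates 1, 4 or 5 (log2 fold changes -0.18 to -0.13; adjusted p = 0.000532 to 0.161 over all alternatives), and that of Gins4 missed the threshold with scaling to library totals and without clone1 replicate 1, Fh1_fl_fl replicate 2 (log2 fold changes 0.07 to 0.19; adjusted p = 0.00834 to 0.5 over all alternatives). Values that were not called in the clones also crossed the threshold: Gins1 in clone1 passed the threshold without Fh1_fl_fl replicate 4 (log2 fold change 0.26; adjusted p = 0.0474 to 0.827 over all alternatives), Gins2 in clone1 passed the threshold with scaling to library totals (log2 fold change -0.24; adjusted p = 0.029 to 0.874 over all alternatives), and Gins4 in clone19 passed the threshold with scaling to library totals and without clone19 replicate 2 (log2 fold changes -0.24 to -0.22; adjusted p = 0.0152 to 0.674 over all alternatives).

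Pcna forms the ring that holds polymerases on DNA, and the Rfc1 to Rfc5 complex opens and loads it. Of 6 genes of this group, the test called 1 higher and 5 lower in clone1, 1 higher and 5 lower in clone19 and 5 higher and 0 lower in Rec, each against Fh1_fl_fl, with median log2 fold changes of -0.63 in clone1, -0.40 in clone19 and 0.38 in Rec. Pcna (ENSMUSG00000027342, chr2:132249162-132253314, minus strand) was lowest in clone19 and highest in Rec; its pseudogenes Pcna-ps1 and Pcna-ps2 may share reads with it. Pcna had 169, 141, 149, 144 and 151 CPM in clone1 replicates 1 to 5 and 100.1, 125, 113, 114 and 100.2 CPM in those of clone19. Rec had 213, 242, 233, 228 and 226 CPM of Pcna, against 169.5, 158, 169, 185 and 158 CPM in Fh1_fl_fl. For Pcna, every Rec library lay above every Fh1_fl_fl library, every clone19 library lay below every Fh1_fl_fl library, and the values of clone1 overlapped with those of Fh1_fl_fl. For Pcna, the log2 fold change against Fh1_fl_fl was -0.16 (SE 0.07, adjusted p = 0.0321) in clone1, -0.60 (SE 0.07, adjusted p = 7.57e-09) in clone19 and 0.45 (SE 0.07, adjusted p = 9.3e-07) in Rec. The clone1 call of Pcna missed the threshold with RLE scaling, the stricter count filter and DESeq2 and without clone1 replicates 2, 3, 4 or 5, clone19 replicates 1 or 3, Rec replicates 2, 4 or 5, Fh1_fl_fl replicates 1, 3, 4 or 5 (log2 fold changes -0.15 to -0.07; adjusted p = 0.000171 to 0.338 over all alternatives). Rfc5 (ENSMUSG00000029363, chr5:117378103-117389047, minus strand), a small subunit of the loader, fell in both clones and rose in Rec. In clone1, Rfc5 was counted at 30.6, 25.7, 24, 27.6 and 24 CPM, and in clone19 at 45.4, 60.4, 58, 59.2 and 51.5 CPM. In Rec, Rfc5 had 104, 119.5, 124, 108 and 113 CPM, against 75.3, 75, 71.3, 78.8 and 74.9 CPM in Fh1_fl_fl. For Rfc5, every Rec library lay above every Fh1_fl_fl library, while all libraries of clone1 and clone19 lay below all of Fh1_fl_fl. Rfc5 had log2 fold changes against Fh1_fl_fl of -1.51 (SE 0.08, adjusted p = 1.32e-15) in clone1, -0.45 (SE 0.08, adjusted p = 8.04e-06) in clone19 and 0.60 (SE 0.07, adjusted p = 4.28e-08) in Rec. Rfc1 (ENSMUSG00000029191, chr5:65261850-65335670, minus strand), the large subunit, showed smaller differences. Rfc1 reached 174, 207, 219.5, 216 and 199 CPM in the clone1 libraries and 158, 148, 155, 149 and 155 CPM in the clone19 libraries. Rfc1 stood at 248, 213, 222, 227 and 239.5 CPM in Rec, against 186, 185, 172, 193 and 187 CPM in Fh1_fl_fl. For Rfc1, every Rec library lay above every Fh1_fl_fl library, every clone19 library lay below every Fh1_fl_fl library, and the values of clone1 overlapped with those of Fh1_fl_fl. Against Fh1_fl_fl, Rfc1 gave a log2 fold change of 0.14 (SE 0.06, adjusted p = 0.0358) in clone1, -0.27 (SE 0.06, adjusted p = 0.000218) in clone19 and 0.32 (SE 0.06, adjusted p = 3.31e-05) in Rec. The clone1 call of Rfc1 missed the threshold with scaling to library totals and no count filter and without clone1 replicates 2, 3 or 4, Fh1_fl_fl replicate 2 (log2 fold changes -0.002 to 0.14; adjusted p = 0.000548 to 0.98 over all alternatives), and the difference between clone1 and clone19 was 0.41 (SE 0.06, adjusted p = 1.25e-06).

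Rfc3 (ENSMUSG00000033970, chr5:151642756-151651242, minus strand), another small loader subunit, fell in clone1 and rose in clone19 and Rec. Rfc3 had 34.4, 34.2, 34.2, 32 and 29.3 CPM in clone1 replicates 1 to 5 and 52.2, 69.2, 62.9, 55.3 and 48 CPM in those of clone19. Rec had 83.9, 92.4, 91.4, 82.8 and 85 CPM of Rfc3, against 49, 49.4, 49.6, 53.3 and 48.2 CPM in Fh1_fl_fl. For Rfc3, every Rec library lay above every Fh1_fl_fl library, every clone1 library lay below every Fh1_fl_fl library, and the values of clone19 overlapped with those of Fh1_fl_fl. For Rfc3, the log2 fold change against Fh1_fl_fl was -0.60 (SE 0.08, adjusted p = 1.18e-07) in clone1, 0.20 (SE 0.08, adjusted p = 0.021) in clone19 and 0.80 (SE 0.07, adjusted p = 3.45e-10) in Rec. The clone19 call of Rfc3 missed the threshold with scaling to library totals and no count filter and without clone19 replicates 2 or 3 (log2 fold changes 0.07 to 0.18; adjusted p = 0.00262 to 0.381 over all alternatives), and the difference between clone1 and clone19 was -0.81 (SE 0.08, adjusted p = 1.99e-09). Rfc2 fell by 0.66 in clone1 and 0.36 in clone19 on the log2 scale, with 41.2 ± 7.06 CPM in clone1, 51 ± 3.32 in clone19, 70.5 ± 6.68 in Rec and 65.3 ± 1.67 in Fh1_fl_fl (SD, n = 5 each), and its Rec value of 0.11 did not pass the test. Rfc4 fell by 0.65 in clone1 and 0.57 in clone19 and rose by 0.32 in Rec, where the call missed the threshold with scaling to library totals (log2 fold change 0.18; adjusted p = 0.000289 to 0.0649 over all alternatives). The median log2 fold change in Rec was 0.38 over the 6 clamp and loader genes and 1.07 over the 6 helicase genes. The 2 groups of genes overlapped, with Rfc3 (0.80) above Mcm7 (0.66) and Mcm4 (0.56), and the difference was not tested.

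Polymerase alpha with primase starts each strand, and polymerases delta and epsilon extend the lagging and the leading strand. Of 9 polymerase and primase genes, the test called 3 higher and 6 lower in clone1, 3 higher and 2 lower in clone19 and 9 higher and 0 lower in Rec, each against Fh1_fl_fl, with median log2 fold changes of -0.70 in clone1, 0.04 in clone19 and 0.76 in Rec. Pola1 (ENSMUSG00000006678, chrX:93304767-93632155, minus strand), the catalytic subunit of polymerase alpha, had the largest absolute log2 fold change of the called members in clone1. In clone1, Pola1 was counted at 23.5, 25.7, 27.8, 27.3 and 29.1 CPM, and in clone19 at 42.4, 42.7, 40.4, 42.5 and 48.6 CPM. In Rec, Pola1 had 120.3, 101, 105, 108 and 118 CPM, against 98.2, 97.3, 80.8, 99.6 and 95.1 CPM in Fh1_fl_fl. For Pola1, every Rec library lay above every Fh1_fl_fl library, while all libraries of clone1 and clone19 lay below all of Fh1_fl_fl. Pola1 had log2 fold changes against Fh1_fl_fl of -1.82 (SE 0.07, adjusted p = 6.2e-18) in clone1, -1.12 (SE 0.07, adjusted p = 2.03e-13) in clone19 and 0.23 (SE 0.07, adjusted p = 0.00389) in Rec. The Rec call of Pola1 missed the threshold with scaling to library totals (log2 fold change 0.10; adjusted p = 0.00112 to 0.24 over all alternatives). Pola2 (ENSMUSG00000024833, chr19:5940542-5964202, minus strand), the second subunit of the same polymerase, fell in clone1 and rose in clone19 and Rec. Pola2 reached 23.2, 24.8, 22, 27.1 and 19.1 CPM in the clone1 libraries and 47.2, 42.5, 50.4, 48 and 49.8 CPM in the clone19 libraries. Pola2 stood at 87, 88.3, 89.5, 87.8 and 91.3 CPM in Rec, against 38.5, 40.3, 35.1, 43.7 and 39.3 CPM in Fh1_fl_fl. For Pola2, every Rec library lay above every Fh1_fl_fl library, every clone1 library lay below every Fh1_fl_fl library, and the values of clone19 overlapped with those of Fh1_fl_fl. Against Fh1_fl_fl, Pola2 gave a log2 fold change of -0.77 (SE 0.08, adjusted p = 9.49e-10) in clone1, 0.27 (SE 0.07, adjusted p = 0.00199) in clone19 and 1.17 (SE 0.07, adjusted p = 6.06e-14) in Rec. The clone19 call of Pola2 missed the threshold with scaling to library totals (log2 fold change 0.15; adjusted p = 0.000268 to 0.0966 over all alternatives), and the difference between clone1 and clone19 was -1.04 (SE 0.08, adjusted p = 9.14e-12). Pold2 (ENSMUSG00000020471, chr11:5872180-5878292, minus strand), an accessory subunit of polymerase delta, rose in all 3 groups, with the largest mean in clone1. Pold2 had 145, 131, 125, 133 and 139 CPM in clone1 replicates 1 to 5 and 90.3, 65.7, 76.4, 79.7 and 79 CPM in those of clone19. Rec had 96.4, 105, 108, 102 and 96.4 CPM of Pold2, against 45.6, 51.9, 40.5, 43.7 and 45.9 CPM in Fh1_fl_fl. For Pold2, all libraries of clone1, clone19 and Rec lay above all of Fh1_fl_fl. For Pold2, the log2 fold change against Fh1_fl_fl was 1.57 (SE 0.07, adjusted p = 1.01e-16) in clone1, 0.78 (SE 0.07, adjusted p = 4.49e-10) in clone19 and 1.16 (SE 0.07, adjusted p = 1.28e-13) in Rec.

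Prim1, the catalytic primase subunit, fell by 1.08 in clone1 and 0.67 in clone19 and rose by 1.01 in Rec on the log2 scale, with 26.4 ± 2.61 CPM in clone1, 35.1 ± 6.14 in clone19, 112 ± 11.9 in Rec and 55.9 ± 6.58 in Fh1_fl_fl (SD, n = 5 each). Prim2, the large primase subunit, fell by 0.50 in clone1 and rose by 0.76 in Rec, and its clone19 value passed the threshold with scaling to library totals (log2 fold change -0.26; adjusted p = 0.00754 to 0.439 over all alternatives). Pold1, the catalytic subunit of polymerase delta, rose in all 3 groups, with 35.3 ± 4.63 CPM in clone1, 41.2 ± 5.82 in clone19, 42.3 ± 2.82 in Rec and 28.6 ± 2.51 in Fh1_fl_fl, although the clone1 call missed the threshold with scaling to library totals (log2 fold change 0.16; adjusted p = 0.00124 to 0.15 over all alternatives). Pold3, a further delta subunit, rose by 0.59 in clone1 and 0.43 in Rec. Pole and Pole2, subunits of polymerase epsilon, fell in clone1 by 0.70 and 0.97 on the log2 scale. In Rec, Pole rose by 0.37 on the same scale, and Pole2 rose to 30.9 ± 4.21 CPM, against 14.4 ± 1.48 CPM in Fh1_fl_fl (SD, n = 5 each). In clone19, Pole passed the threshold without clone19 replicate 2 (log2 fold change 0.20; adjusted p = 0.0281 to 0.992 over all alternatives), and Pole2 passed the threshold with scaling to library totals (log2 fold change -0.35; adjusted p = 0.0202 to 0.456 over all alternatives). Within clone1 the catalytic subunit genes of polymerases alpha and epsilon were thus lower than in Fh1_fl_fl. The 3 delta subunit genes of the set were higher. Levels per kilobase were 3.03 CPM for Pola1, 5.98 for Pole and 7.27 for Pold1 in clone1, against 10.7, 9.7 and 5.89 CPM in Fh1_fl_fl. Outside the set, the epsilon subunit gene Pole4 was higher in clone1, at 71.2 to 105 CPM against 43.4 to 55.7 in Fh1_fl_fl. Pole3, also of epsilon, averaged 41.3 CPM in clone1 and 37.3 in Fh1_fl_fl. The further delta subunit gene Pold4 had 0 CPM in every library.

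Fen1 trims the flaps of Okazaki fragments, Lig1 seals them, and the Rpa1, Rpa2 and Rpa3 trimer coats single-stranded DNA. Of 5 genes of this group, the test called 2 higher and 2 lower in clone1, 0 higher and 1 lower in clone19 and 5 higher and 0 lower in Rec, each against Fh1_fl_fl, with median log2 fold changes of -0.28 in clone1, 0.01 in clone19 and 1.21 in Rec. Fen1 fell by 1.41 in clone1 and 0.62 in clone19 and rose by 1.25 in Rec on the log2 scale, with 36.7 ± 3.94 CPM in clone1, 63.5 ± 3.25 in clone19, 233 ± 13.1 in Rec and 97.7 ± 4.26 in Fh1_fl_fl (SD, n = 5 each). Of its exon bases, 78.8% overlap the antisense gene Gm10143. Lig1 rose by 1.25 in Rec, with 79.7 ± 3.6 CPM in clone1, 71.5 ± 6.28 in clone19, 169 ± 4.51 in Rec and 71.3 ± 5.47 in Fh1_fl_fl. Its clone1 call missed the threshold with scaling to library totals and no count filter (log2 fold changes 0.02 to 0.14; adjusted p = 0.00314 to 0.843 over all alternatives). Rpa2 fell by 0.51 in clone1 and rose by 1.21 in Rec, with 19.3 ± 2.15 CPM in clone1, 28.3 ± 2.08 in clone19, 63.9 ± 3.36 in Rec and 27.6 ± 1.89 in Fh1_fl_fl. Rpa1 rose by 0.71 in Rec, and its clone1 call missed the threshold with scaling to library totals and no count filter (log2 fold changes -0.01 to 0.11; adjusted p = 0.0013 to 0.838 over all alternatives). In clone19, Rpa1 passed the threshold with scaling to library totals and without Fh1_fl_fl replicate 5 (log2 fold changes -0.23 to -0.13; adjusted p = 0.000567 to 0.225 over all alternatives). Rpa3 averaged 24.2 ± 3.5 CPM in clone1, 30.6 ± 8.26 in clone19, 37.4 ± 1.69 in Rec and 29.4 ± 4.84 in Fh1_fl_fl. Its Rec call missed the threshold with scaling to library totals and without Fh1_fl_fl replicate 1 (log2 fold changes 0.22 to 0.30; adjusted p = 0.000927 to 0.122 over all alternatives), and its clone1 value passed the threshold with scaling to library totals, no count filter, the replicate block and a fit of only the 2 groups compared and without clone19 replicates 2 or 5, Fh1_fl_fl replicate 2 (log2 fold changes -0.42 to -0.27; adjusted p = 0.00522 to 0.296 over all alternatives).

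Cyclins E1 and E2 activate Cdk2 at the entry to S phase, cyclin A2 acts through S phase, and E2f1 and E2f2 are activating E2F factors. Of 5 regulator genes, the test called 3 higher and 1 lower in clone1, 2 higher and 1 lower in clone19 and 4 higher and 1 lower in Rec, each against Fh1_fl_fl, with median log2 fold changes of 0.34 in clone1, 0.24 in clone19 and 0.69 in Rec. Ccne1 (ENSMUSG00000002068, chr7:38097984-38107534, minus strand) was the single member that fell in Rec. In clone1, Ccne1 was counted at 28.3, 23.5, 23.5, 22 and 22.4 CPM, and in clone19 at 18.4, 20.8, 20.6, 21.3 and 18.2 CPM. In Rec, Ccne1 had 8.03, 8.94, 8.66, 6.58 and 7.92 CPM, against 19.2, 14.8, 19.4, 17.3 and 18.9 CPM in Fh1_fl_fl. For Ccne1, every clone1 library lay above every Fh1_fl_fl library, every Rec library lay below every Fh1_fl_fl library, and the values of clone19 overlapped with those of Fh1_fl_fl. Ccne1 had log2 fold changes against Fh1_fl_fl of 0.41 (SE 0.09, adjusted p = 0.000184) in clone1, 0.14 (SE 0.09, adjusted p = 0.169) in clone19 and -1.16 (SE 0.10, adjusted p = 6.71e-11) in Rec. Ccne2 (ENSMUSG00000028212, chr4:11191351-11204779, plus strand), which encodes the other E cyclin, had the opposite order of groups. Of its exon bases, 17.4% overlap Ints8 on the other strand. Ccne2 reached 7.86, 7.84, 9.02, 11.1 and 8.76 CPM in the clone1 libraries and 15.9, 28.4, 19.8, 21.9 and 15.5 CPM in the clone19 libraries. Ccne2 stood at 37.9, 45.8, 44.4, 46.6 and 40.0 CPM in Rec, against 25.9, 26.7, 25.4, 29.8 and 25 CPM in Fh1_fl_fl. For Ccne2, every Rec library lay above every Fh1_fl_fl library, every clone1 library lay below every Fh1_fl_fl library, and the values of clone19 overlapped with those of Fh1_fl_fl. Against Fh1_fl_fl, Ccne2 gave a log2 fold change of -1.59 (SE 0.13, adjusted p = 1.39e-11) in clone1, -0.38 (SE 0.12, adjusted p = 0.0062) in clone19 and 0.69 (SE 0.11, adjusted p = 3.09e-06) in Rec. The ratio of Ccne1 to Ccne2, both per kilobase of exon, was 3.61 ± 0.787 in clone1, 1.33 ± 0.234 in clone19, 0.247 ± 0.0356 in Rec and 0.892 ± 0.133 in Fh1_fl_fl (SD, n = 5 each). The clone1 libraries held 2.59 to 4.72 and the Rec libraries 0.186 to 0.278, against 0.731 to 0.999 in Fh1_fl_fl. Clone19 ran from 0.962 to 1.54 and overlapped with Fh1_fl_fl. E2f1 (ENSMUSG00000027490, chr2:154559407-154569892, minus strand) was the member that rose most in clone19. E2f1 had 24.6, 22.2, 24.4, 22.3 and 22.5 CPM in clone1 replicates 1 to 5 and 42.3, 43.4, 50.5, 49 and 53.6 CPM in those of clone19. Rec had 26, 32.4, 26.7, 29.2 and 27 CPM of E2f1, against 16.7, 16.9, 20.3, 18.6 and 19.3 CPM in Fh1_fl_fl. For E2f1, all libraries of clone1, clone19 and Rec lay above all of Fh1_fl_fl. For E2f1, the log2 fold change against Fh1_fl_fl was 0.34 (SE 0.08, adjusted p = 0.000709) in clone1, 1.38 (SE 0.08, adjusted p = 2.19e-14) in clone19 and 0.62 (SE 0.08, adjusted p = 1.76e-07) in Rec. E2f2 (ENSMUSG00000018983, chr4:136172394-136196057, plus strand) was the least abundant member per kilobase of exon in each group. In clone1, E2f2 was counted at 4.08, 6.1, 6.27, 6.71 and 5.98 CPM, and in clone19 at 7.96, 7.48, 6.64, 7.67 and 7.46 CPM. In Rec, E2f2 had 16, 13.5, 13.2, 10.5 and 14.2 CPM, against 7.1, 4.67, 6.24, 6.66 and 6.55 CPM in Fh1_fl_fl. For E2f2, every Rec library lay above every Fh1_fl_fl library, while the values of clone1 and clone19 overlapped with those of Fh1_fl_fl. E2f2 had log2 fold changes against Fh1_fl_fl of -0.13 (SE 0.14, adjusted p = 0.39) in clone1, 0.24 (SE 0.14, adjusted p = 0.122) in clone19 and 1.09 (SE 0.12, adjusted p = 9.52e-09) in Rec. Ccna2 rose in all 3 groups, with 325 ± 14.9 CPM in clone1, 324 ± 23.4 in clone19, 600 ± 31 in Rec and 239 ± 9.81 in Fh1_fl_fl (SD, n = 5 each), and was the most abundant member per kilobase of exon in clone1 (79.6 CPM), clone19 (79.4 CPM) and Rec (147 CPM). In Fh1_fl_fl it had 58.5 CPM per kilobase, below Pcna with 70.0. By the Pearson correlation of the 4 group means of log2 CPM, which describes 4 points only, the members most like E2f1 were Orc3 (0.865), Pold1 (0.787) and Cdc7 (0.738), and the least like it was Pcna (-0.558).

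**Figure D5:**
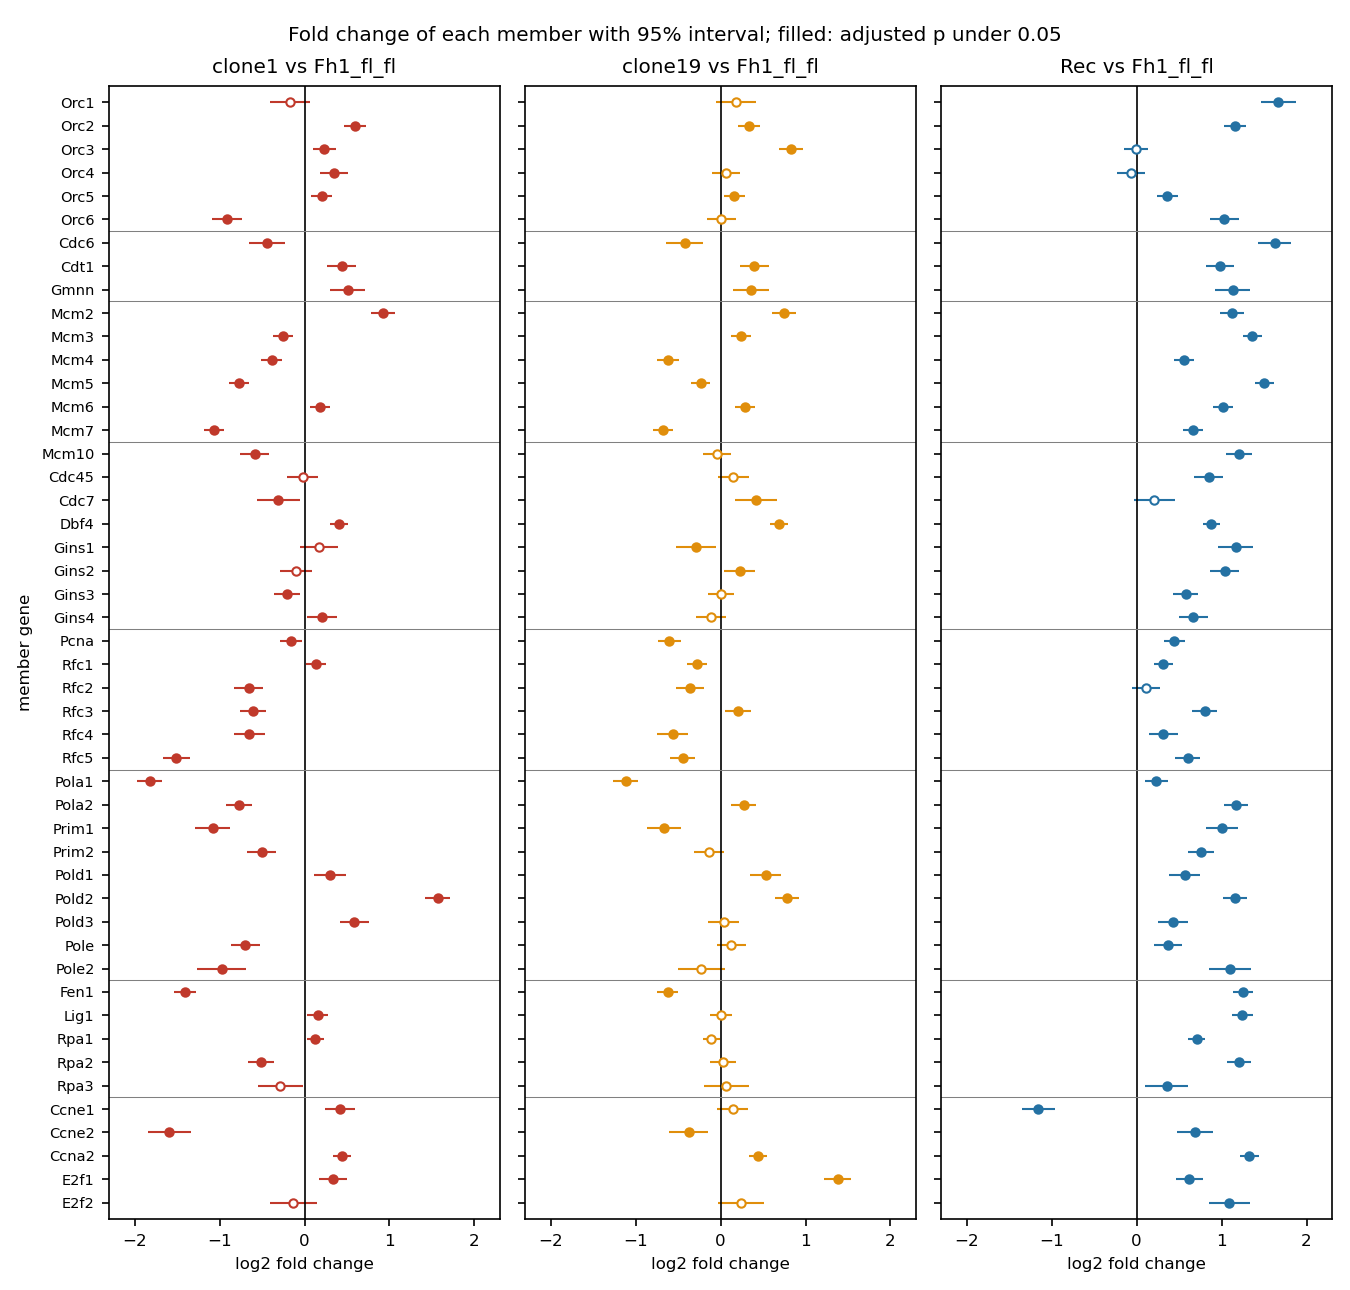
Log2 fold change (horizontal axis) of each member (vertical axis, in the order of roles) in clone1, clone19 and Rec against Fh1_fl_fl, with 95% intervals; filled points passed an adjusted p of 0.05 and open points did not. Rec values run from -1.16 for Ccne1 to 1.67 for Orc1, and clone1 values from -1.82 for Pola1 to 1.57 for Pold2.

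Rec was then set against each clone, which asks how the cells labelled as re-expressing Fh1 differ from those labelled as lacking it. Against clone1, 43 members were higher and 4 lower in Rec, while 39.7% of all tested genes were higher and 38.1% lower. The median log2 fold change was 0.92 over the members and 0.01 over all tested genes. Fen1 was highest in this comparison at 2.66 (SE 0.07, adjusted p = 2.42e-22), followed by Ccne2 at 2.28 and Mcm5 at 2.27. The members lower in Rec than in clone1 were Ccne1 (-1.57), Orc4 (-0.41), Pold2 (-0.41) and Orc3 (-0.24), while Pold3 (-0.16) did not pass the test. The Pold3 value passed the threshold with the stricter count filter, a fit of only the 2 groups compared and DESeq2 and without clone1 replicate 5, clone19 replicate 1, Rec replicate 5, Fh1_fl_fl replicate 5 (log2 fold changes -0.24 to -0.19; adjusted p = 0.0211 to 0.235 over all alternatives). Among the members higher in Rec, the Orc5 call missed the threshold with RLE scaling and the stricter count filter and without clone1 replicates 2 or 5, clone19 replicate 1, Rec replicates 4 or 5, Fh1_fl_fl replicates 1, 3, 4 or 5 (log2 fold changes 0.12 to 0.15; adjusted p = 0.0105 to 0.108 over all alternatives), that of Rfc1 missed the threshold with a fit of only the 2 groups compared and without clone1 replicate 1, Rec replicate 5 (log2 fold changes 0.11 to 0.14; adjusted p = 0.00396 to 0.0705 over all alternatives), and that of Pold1 missed the threshold without clone1 replicate 2 (log2 fold change 0.20; adjusted p = 0.00477 to 0.0548 over all alternatives). Against clone19, 41 members were higher and 3 lower in Rec, beside 35.8% and 38% of all tested genes, with a median of 0.82 over the members and -0.02 over all tested genes. Cdc6 was highest at 2.05 (SE 0.11, adjusted p = 1.97e-15), followed by Fen1 at 1.87 and Mcm5 at 1.74. Lower in Rec than in clone19 were Ccne1 (-1.30), Orc3 (-0.83) and E2f1 (-0.76). Orc4, Cdc7, Pold1 and Rpa3 did not pass the test. Of these, Rpa3 passed the threshold with no count filter and the replicate block and without clone1 replicates 1 or 5, clone19 replicate 2 (log2 fold changes 0.30 to 0.43; adjusted p = 0.004 to 0.217 over all alternatives), Orc4 passed the threshold without clone19 replicate 5 (log2 fold change -0.19; adjusted p = 0.0481 to 0.681 over all alternatives), and Cdc7 passed the threshold without clone19 replicate 1 (log2 fold change -0.30; adjusted p = 0.0217 to 0.345 over all alternatives). The call of Pole in Rec against clone19 missed the threshold without clone19 replicate 2 (log2 fold change 0.17; adjusted p = 0.00155 to 0.0578 over all alternatives). The examples of highest members follow the size of the change and were picked after the values were seen. For 41 members all Rec libraries lay above all clone1 libraries and for 39 above all clone19 libraries, against 31.9% and 27.9% of all tested genes.

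The clones also differed from each other. In clone1 against clone19, 13 members were higher and 27 lower, while 31.6% of all tested genes were higher and 33.5% lower, and the median log2 fold change was -0.29 over the members and -0.02 over all tested genes. Ccne2 (-1.22), Rfc5 (-1.06), E2f1 (-1.04) and Pola2 (-1.04) were lower in clone1 by over 1 on the log2 scale, as were 8.56% of all tested genes, and 0 members were higher by as much, against 7.24%. Pold2 (0.78), Pold3 (0.55) and Gins1 (0.46) were higher in clone1. All clone1 libraries lay below all clone19 libraries for 17 members, and above them for 6, against 23% and 22.4% of all tested genes. Between the clones the Mcm2 call missed the threshold with scaling to library totals and without clone19 replicate 2 (log2 fold changes 0.11 to 0.16; adjusted p = 0.00827 to 0.124 over all alternatives), the Orc1 call missed the threshold with a fit of only the 2 groups compared and without clone1 replicates 2 or 5, clone19 replicates 2 or 3 (log2 fold changes -0.34 to -0.26; adjusted p = 0.00764 to 0.0904 over all alternatives), and the E2f2 call missed the threshold with no count filter and without clone1 replicates 1 or 5, clone19 replicates 1 or 4 (log2 fold changes -0.36 to -0.23; adjusted p = 0.0222 to 0.15 over all alternatives). The least stable calls were those of Pold1 (-0.23) and Gins3 (-0.20), both lower in clone1. The Pold1 call missed the threshold with RLE scaling, no count filter, the stricter count filter, a fit of only the 2 groups compared and DESeq2 and without clone1 replicates 2, 3 or 5, clone19 replicates 1, 3, 4 or 5, Rec replicates 2, 4 or 5, Fh1_fl_fl replicates 1, 3, 4 or 5 (log2 fold changes -0.21 to -0.17; adjusted p = 0.00371 to 0.151 over all alternatives). The Gins3 call missed the threshold with RLE scaling, no count filter, the stricter count filter, a fit of only the 2 groups compared and DESeq2 and without clone1 replicates 1, 2, 3 or 4, clone19 replicates 1 or 4, Rec replicates 2, 4 or 5, Fh1_fl_fl replicates 1, 3, 4 or 5 (log2 fold changes -0.20 to -0.13; adjusted p = 0.0251 to 0.175 over all alternatives). The call of Rpa3, lower in clone1, missed the threshold with a fit of only the 2 groups compared and without clone1 replicate 5, clone19 replicates 2, 3 or 4, Rec replicates 4 or 5, Fh1_fl_fl replicate 5 (log2 fold changes -0.34 to -0.21; adjusted p = 0.00537 to 0.175 over all alternatives), and that of Lig1, higher in clone1, missed the threshold with scaling to library totals, no count filter and a fit of only the 2 groups compared and without clone1 replicate 4, clone19 replicates 2, 3 or 4 (log2 fold changes 0.12 to 0.17; adjusted p = 0.0069 to 0.11 over all alternatives). Of 18 genes of mitosis and proliferation, 4 were higher and 7 lower in clone1 than in clone19.

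Other genes of replication, from checkpoint mediators to chromatin assembly factors, were read beside the members. Of 41 listed, 40 were tested, and 8 were higher and 21 lower in clone1, 14 and 13 in clone19, and 36 and 1 in Rec, each against Fh1_fl_fl, with medians of -0.28, 0.03 and 0.76. Among all tested genes, 38% were higher and 40.5% lower in clone1, 36.8% and 36.1% in clone19, and 33.4% and 37.4% in Rec. Dscc1, part of an alternative clamp loader, had 1.1 ± 0.556 CPM in clone1, 1.32 ± 0.586 in clone19, 11.6 ± 2.06 in Rec and 4.26 ± 0.363 in Fh1_fl_fl (SD, n = 5 each), and fell by 2.03 in clone1 and 1.72 in clone19 and rose by 1.43 in Rec on the log2 scale. E2f8, a repressing E2F factor, fell by 1.32 in clone1 and rose by 0.30 in clone19 and 0.67 in Rec. The histone chaperone gene Asf1b fell by 1.05 in clone1 and 0.74 in clone19 and rose by 0.38 in Rec. Cdk2, the kinase that cyclin E activates, fell by 0.71 in clone1 and 0.83 in clone19 and rose by 0.60 in Rec. Lrwd1, which binds the origin recognition complex, fell by 0.59 in clone1, 0.91 in clone19 and 0.29 in Rec, and was the single gene of the list lower in Rec. Of 18 genes of mitosis and proliferation, 11 were higher and 3 lower in clone1, 12 and 2 in clone19, and 17 and 0 in Rec, with medians of 0.18, 0.35 and 0.98. Their summed level was 2597 to 2845 CPM in clone1, 2696 to 2820 in clone19, 4263 to 4520 in Rec and 1985 to 2303 in Fh1_fl_fl. In clone1 the named mitotic genes were Cenpe (-1.04), Kif11 (-0.93) and Top2a (0.87), and in clone19 Tpx2 (0.88), Aurka (0.82) and Aurkb (0.64). The mitotic genes therefore moved with the members in Rec, and in the clones they were more often higher than lower; the part of the share of dividing cells in the members' levels was not tested.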

How the data were processed

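Transcripts were counted in 20 RNA-seq libraries, 4 groups of 5. The authors deposited counts, 1 table a library, with whole numbers of reads by Ensembl gene and no scaling. The submitters' processing notes name the build GRCm38 and, without roles, TopHat2 (2.0.4), HTSeq (0.5.3p9) and DESeq (1.10.1). Annotation release and strand setting are not given in the sources used. Reads outside genes (28.8 to 40.3% without a unique alignment, 3.28 to 6.73% in no feature, 0.462 to 0.653% ambiguous) were left out. Symbols, coordinates and exon lengths came from GENCODE M21 (GRCm38). The 12671 genes that passed filterByExpr were scaled by TMM in edgeR 4.0.16 (R 4.3.3), and 1 quasi-likelihood fit of all 20 libraries with a mean per group was tested with glmQLFTest, adjusted by Benjamini-Hochberg over all tested genes and called at 0.05. The test was tried on simulated data. A standard error is the absolute log2 fold change over the root of F. CPM per kilobase divides CPM by exon length. Alternatives were RLE scaling, library totals, no filter, at least 10 counts in every library of a group, the replicate number as a block, only the 2 groups compared, DESeq2 1.42.0, and leaving out each library. The limit that 0 counts allow, 3 counts, is 0.158 to 0.501 CPM in single libraries and covers counting error only. Every library's value is given for the 4 called members of largest change in each group against Fh1_fl_fl, for members called in opposite directions in the clones, and for Mcm2, Mcm5, Cdc6, Cdt1, Gmnn, Pcna, Ccne1, Ccne2, E2f1 and E2f2. Other lists name the 3 called genes of largest change in each clone. The members, lists and tests were chosen with earlier results of these data known.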

Additional observations from a re-analysis of the deposited data

Results flagged for a closer look

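Each member was examined in each group of 5 libraries for 1 library that stood far from the other 4 by Dixon's criterion (gap over range above 0.71). Of 192 sets of 5 values, 10 met it (5.21%), and chance alone gives about 1 in 20. In clone1 replicate 1, Prim1 was highest at 30.9 CPM (next library 26.2), Ccne1 was highest at 28.3 CPM (next 23.5), and E2f2 was lowest at 4.08 CPM (next 5.98). Clone19 replicate 5 was highest for Cdc6 at 16.3 CPM (next 12.1) and for Pola1 at 48.6 CPM (next 42.7). Rec replicate 1 was highest for Mcm2 at 267 CPM (next 246). Among the Fh1_fl_fl libraries, replicate 4 was highest for Rfc3 at 53.3 CPM (next 49.6) and for Prim1 at 67.3 CPM (next 54.7), replicate 2 was highest for Fen1 at 105 CPM (next 96.9), and replicate 3 was lowest for Pola1 at 80.8 CPM (next 95.1). Without Fh1_fl_fl replicate 3, the Pola1 log2 fold change was -1.83 in clone1, -1.16 in clone19 and 0.19 in Rec, each against Fh1_fl_fl.

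For 5 members the clones differed from Fh1_fl_fl in opposite directions, and the difference between clone1 and clone19 was itself tested in edgeR's quasi-likelihood fit. Clone1 minus clone19 on the log2 scale was -0.49 for Mcm3 (adjusted p = 6.42e-08), -0.72 for Cdc7 (adjusted p = 2.45e-05), 0.41 for Rfc1 (adjusted p = 1.25e-06), -0.81 for Rfc3 (adjusted p = 1.99e-09) and -1.04 for Pola2 (adjusted p = 9.14e-12). All 5 of these differences passed the threshold under all 27 alternatives. These members were picked by their opposite calls against the same Fh1_fl_fl libraries, so this outcome was largely set by the selection. The opposite calls themselves were less stable. Under some alternatives Cdc7 and Rfc1 lost the call in clone1 against Fh1_fl_fl, and Mcm3, Rfc3 and Pola2 lost the call in clone19.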

How the results depend on the processing

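Calls were recomputed for 288 pairs of a member and a comparison under 27 alternatives. Of these, 241 kept direction and side of the threshold under all of them, and 47 did not. The largest absolute log2 fold change among the pairs that changed was 0.37. Library totals in place of TMM changed most calls of any setting. They gave 11 members higher in clone1 than in Fh1_fl_fl with a median log2 fold change of -0.31, 11 higher in clone19 with a median of -0.075 (a reversed sign), and 2 lower in Rec with a median of 0.69. The median over all tested genes was then -0.12 in clone19, also a reversed sign, beside the shifts given above. Rfc1 and Rpa1 in clone1 reversed to -0.002 and -0.013 (adjusted p = 0.98 and 0.838). The cause was not tested. RLE scaling lost 6 calls and gained 0, DESeq2 lost 5 and gained 1, no filter lost 10 and gained 2, the stricter filter lost 6 and gained 1, and fits of 2 groups lost 7 and gained 3. Leaving out each library in turn gave 17 to 20 higher and 20 to 24 lower in clone1, 15 to 17 higher and 13 to 15 lower in clone19 and 42 to 44 higher and 1 lower in Rec, each against Fh1_fl_fl. It gave 41 to 43 higher and 4 to 5 lower in Rec against clone1, 41 to 42 higher and 3 to 4 lower in Rec against clone19, and 11 to 13 higher and 23 to 27 lower in clone1 against clone19. The median log2 fold change of the members then ran from 0.78 to 0.87 in Rec against clone19 (highest without clone19 replicate 2), from -0.19 to -0.08 in clone1 against Fh1_fl_fl (highest without Fh1_fl_fl replicate 4), and from 0.03 to 0.11 in clone19 against Fh1_fl_fl (without clone19 replicate 2 and without clone19 replicate 1). The labels do not say whether the replicate numbers pair the libraries. Same-numbered libraries of different groups had correlations of -0.26 to 0.22 in their deviations from the group means (median 0.02), 6 of 30 over 0.1. Of 20 libraries, 6 correlated best with their own number. Low correlations cannot show that libraries were not paired, so these values do not settle it. With the replicate number as a block, 43 in place of 42 members were called in clone1 against Fh1_fl_fl, and 286 of 288 calls stood; Rpa3 became called in clone1 against Fh1_fl_fl (adjusted p = 0.0404) and in Rec against clone19 (adjusted p = 0.0257).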
